A study of Homo sapiens with 6 samples.

Results

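This report describes 46 genes of a stretch of the short arm of chromosome 12 (12p) in SH-SY5Y cells, out of 26372 genes in the table. They lie from APOLD1 to CCDC91, between bases 12725917 and 28581511 of chromosome 12 (GRCh38), a span of 15.86 Mb. They were taken from a fixed list of symbols that had been drawn up because many of them were lower in TDP-43 knockdown cells, so the members were chosen by the FPKM difference between knockdown and control, and their values in that contrast are given as a description. Where a member is called lower or higher, the call is that of a fit across all genes, and it sorts the members without being independent evidence on them. Of the 46 members, 39 had a mean of 1 FPKM or more over all libraries and entered the fit across genes, and 7 did not. Of these 39, 3 (EMP1, ERP27 and PTHLH) reached that mean through the control libraries alone. FPKM counts sequenced fragments relative to the length of the transcript and the size of the library.

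SH-SY5Y is an established neuroblastoma cell line with neuron-like features. The knockdown cells were infected with lentivirus expressing a short hairpin RNA against TDP-43 (shTDP-43, libraries named shT2 by the labels), and the comparison cells carried a control hairpin (shNC, named shNC3). The knockdown cells were selected and then kept in puromycin, selection of the shNC cells is not stated, and the labels name neither clones nor separate cultures. Poly(A) RNA was sequenced in 3 shTDP-43 and 3 shNC libraries, and p-values reflect their spread alone, which could be technical.

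Human 12p carries, among others, genes of energy metabolism, calcium signalling, the circadian clock and matrix calcification, with no shared function. Neighbouring genes can still share features of expression, because divergent genes may start from a single bidirectional promoter, genes can lie in a common chromatin domain, and all genes of a segment share its copy number. Broadly expressed genes usually start in CpG-rich sequence, while genes restricted to certain cell types more often have CpG-poor starts.

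TARDBP, which encodes TDP-43, had 21.9, 20.7 and 20.98 FPKM in the shTDP-43 libraries, against 50.3, 50.3 and 47.7 FPKM in the shNC libraries. It fell by 1.19 on the log2(FPKM + 1) scale (standard error 0.045, limma adjusted p = 6.69e-08, exact two-sided permutation p = 0.1, the smallest that 3 against 3 libraries allow). Absolute depth is unknown from FPKM. Relative depth, read from the spacing of low values, was 69.5%, 52.3% and 94.3% in the shTDP-43 libraries and 100%, 96.3% and 84.4% in the shNC libraries, with the first shNC library set to 100%. Of 17 tested noradrenergic markers of neuroblastoma, 13 rose and 2 fell, with a summed level of 1409 to 1529 FPKM in shTDP-43 and 854 to 863 FPKM in shNC libraries. TH, a defining marker of that identity, was listed at 0 in all 6 libraries. Among mesenchymal markers, 19 of the 21 tested fell and 1 rose, with a summed level of 989 to 1006 FPKM in shTDP-43 and 4507 to 4564 FPKM in shNC libraries, and ANXA1 and CAV1 were listed at 0 in every shTDP-43 library. MEOX1, which was not tested, was listed at 0 in every shTDP-43 library and in all shNC libraries but the first, at 0.0311 FPKM. Of 5 tested fibroblast or Schwann markers, all 5 rose, with sums of 115 to 127 FPKM against 37.6 to 40.8 FPKM. These markers moved between the same libraries as the members, and their part in the members' differences was not tested. In bulk RNA, fewer cells of a type and less RNA per cell cannot be told apart.

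Most tested members were lower in the knockdown. By limma with Benjamini-Hochberg adjustment over 13434 genes, at a threshold of 0.05, 34 of the 39 tested members were called in either direction (beside 66.3% of all tested genes): 31 were lower (79.5%, beside 35.9% of all tested genes), 3 were higher (beside 30.5%) and 5 were not called. A difference of at least 2-fold in the lower direction was found for 15 members (38.5%, beside 7.95% of all tested genes). Because the contrast chose the members, these shares describe the list and carry no further weight. They also depend on scaling: when columns were set to equal sums 38 of the 39 members and 87.0% of all tested genes were lower. With 6 small RNAs left out of those sums, 31 members and 38.4% of all tested genes were lower. After quantile normalization 30 members and 28.1% of all tested genes were lower. All 3 shTDP-43 values lay below all 3 shNC values for 31 members (beside 38.2% of tested genes), and above them for LMO3, C2CD5 and ETNK1 (beside 32.5%). The median log2 difference of the 39 was -0.74, with quartiles of -1.62 and -0.38, beside -0.02 over all tested genes. Library by library, the median distance of the members from the shNC mean was -0.64, -0.90 and -0.68 in the shTDP-43 libraries and 0.01, 0.02 and -0.02 in the shNC libraries. The second shTDP-43 library, which was the shallowest, held the lowest value of its group for 26 of the 39. Without it the members' median was -0.67. Over all tested genes the median distance was also lowest in that library, at -0.042, beside -0.012 and -0.013 in shTDP-43 libraries 1 and 3. The share of all tested genes with their lowest value there was not counted.

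**Figure D1:**
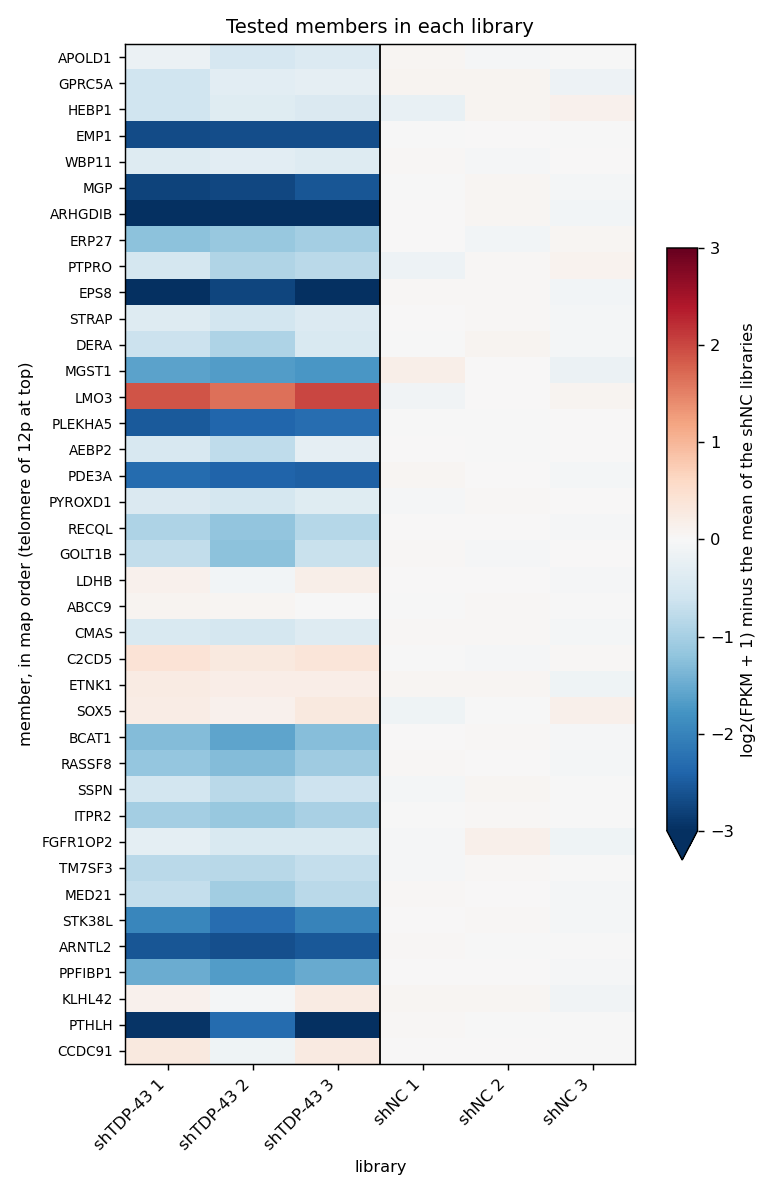
Heat map of the 39 tested members (rows) in each of the 6 libraries (columns, shTDP-43 left of shNC). Rows follow map order, except that ARHGDIB is drawn above ERP27. Colour is log2(FPKM + 1) minus the mean of the shNC libraries, with the scale ending at -3. Most rows are blue in all 3 shTDP-43 libraries, LMO3 is the strongest red row (log2 difference 1.85), and LDHB, ABCC9, KLHL42 and CCDC91 are near white.

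The differences were far from uniform. As a ratio of mean FPKM, 11 members stood at 0.25 of the shNC level or less, 16 at 0.5 or less, 15 between 0.5 and 0.8, 5 between 0.8 and 1.2, and 3 above 1.2 (LMO3, C2CD5 and SOX5). Members known to be broadly expressed in human tissues and members with restricted expression were separated from textbook knowledge. These classes were set with earlier results of these data known. Of 19 broad members, 14 were lower and 3 of these by 2-fold or more, with a median log2 difference of -0.46 and a median ratio of 0.693. Of 20 restricted members, 17 were lower and 12 of these by 2-fold or more, with a median of -1.15 and a median ratio of 0.398. Of all tested genes 35.9% were lower and 7.95% lower by 2-fold or more. The difference between the classes was not tested.

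The signalling members held the deepest differences, and all 11 that were tested were lower, 8 of them by 2-fold or more (median -1.56), beside 35.9% and 7.95% of all tested genes. ARHGDIB encodes a regulator of the actin cytoskeleton. It had 0.623, 1.38 and 1.91 FPKM in the shTDP-43 libraries, against 97.9, 102 and 92.7 FPKM in the shNC libraries, a log2 difference of -5.46 (SE 0.179). The knockdown libraries differed among themselves at this low level, and each was far below every control. EPS8, an actin-capping substrate of the EGF receptor, had 0.802, 1.40 and 1.04 FPKM in shTDP-43, against 15.5, 15.4 and 14.3 FPKM in shNC (-2.96). PTHLH, which encodes the secreted parathyroid hormone-related protein, had 0.374, 1.13 and 0.310 FPKM in shTDP-43, against 9.81, 9.59 and 9.47 FPKM in shNC (-2.76). In both genes the second shTDP-43 library was the highest of its group, and the groups stayed far apart.

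The other tested signalling members, among them a kinase, a channel and a phosphodiesterase, had smaller log2 differences. STK38L, an NDR kinase related to the Hippo pathway, had 14.1, 10.96 and 13.6 FPKM in shTDP-43 libraries, against 57.8, 58.9 and 55.2 FPKM in shNC libraries (-2.08). PPFIBP1, a liprin that organises cell adhesion sites, had 12.54, 10.96 and 12.3 FPKM in shTDP-43, against 37.2, 37.4 and 36.3 FPKM in shNC (-1.56). For RASSF8, a Ras-association protein at cell junctions, the shTDP-43 libraries had 12.4, 11.02 and 13.1 FPKM, against 29.6, 28.8 and 27.6 FPKM in shNC (-1.18). None of the values of these 3 genes overlapped between groups. PDE3A, a cyclic nucleotide phosphodiesterase, averaged 1.58 ± 0.115 FPKM in shTDP-43 and 12.497 ± 0.534 FPKM in shNC (SD, n = 3 each, as for all means below), and ITPR2, a calcium channel of the endoplasmic reticulum, 7.36 ± 0.480 against 16.3 ± 0.299 FPKM. The tyrosine phosphatase PTPRO averaged 2.46 ± 0.481 FPKM in shTDP-43 and 4.78 ± 0.538 FPKM in shNC. The smallest signalling differences were those of FGFR1OP2, at 13.01 ± 0.978 against 17.5 ± 1.93 FPKM, and of the orphan receptor GPRC5A, at 1.03 ± 0.236 against 1.65 ± 0.253 FPKM. The call of GPRC5A was lost without shTDP-43 library 1 (-0.29) and without shNC library 1 or 2 (both -0.35), and with no filter. GUCY2C, the intestinal guanylate cyclase receptor, and PIK3C2G, a class II phosphoinositide 3-kinase, were listed at 0 in 5 of 6 libraries each and at 0.0238 FPKM or less in the other.

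Among the membrane, secretory and trafficking members, 8 of the 11 tested were lower (72.7%, beside 35.9% of all tested genes). In the same group 1 was higher (beside 30.5%) and 2 were not called (median -0.78). MGP encodes matrix Gla protein, a secreted inhibitor of calcification. It had 19.1, 20.01 and 22.3 FPKM in shTDP-43 libraries, against 138, 143 and 133 FPKM in shNC libraries (-2.69), and remained one of the more abundant members in both groups. EMP1, a tetraspan membrane protein, was nearly undetected in the knockdown, with 0.0335, 0.0444 and 0.0495 FPKM in shTDP-43, against 5.55, 5.71 and 5.60 FPKM in shNC. Its log2(FPKM + 1) difference of -2.67 understates the ratio of means, 0.00756. PLEKHA5, a phosphoinositide-binding scaffold, averaged 3.10 ± 0.344 FPKM in shTDP-43 and 20.5 ± 0.334 FPKM in shNC. ERP27, a protein of the endoplasmic reticulum, averaged 0.302 ± 0.0925 and 1.83 ± 0.149 FPKM. TM7SF3 averaged 13.2 ± 0.524 and 23.4 ± 0.599 FPKM, the Golgi transport gene GOLT1B 10.6 ± 2.28 and 20.1 ± 0.553 FPKM, the dystrophin-complex gene SSPN 2.32 ± 0.309 and 4.21 ± 0.211 FPKM, and APOLD1 2.19 ± 0.367 and 3.10 ± 0.143 FPKM in shTDP-43 and shNC libraries.

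Some members of the same group did not share that direction. C2CD5, which takes part in glucose transporter trafficking, had 15.1, 13.8 and 14.7 FPKM in shTDP-43, against 11.1, 10.9 and 11.5 FPKM in shNC, and was called higher (0.35), a direction that turned when columns were set to equal sums. ABCC9 encodes the sulfonylurea receptor subunit of a potassium channel and its neighbour KCNJ8, which is no member, the pore subunit. ABCC9 averaged 10.3 ± 0.423 FPKM in shTDP-43 and 10.01 ± 0.252 FPKM in shNC, and KCNJ8 2.90 ± 0.634 and 3.04 ± 0.224 FPKM, so both differed by less than the spread between libraries. CCDC91, which binds Golgi-sorting adaptors, had 20.3, 14.8 and 19.7 FPKM in shTDP-43, against 16.5, 16.4 and 16.1 FPKM in shNC. Its groups overlap through the second shTDP-43 library. Without that library CCDC91 (0.28), KLHL42 (0.19) and LDHB (0.16) were called higher. That makes 6 higher members in place of 3, beside 4257 of 13434 tested genes. GSG1 and PLBD1, a lysosomal phospholipase B-like gene, stood at 0.113 to 0.603 FPKM in shTDP-43 and 0.197 to 0.348 FPKM in shNC, with overlapping groups.

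Of the 8 tested metabolic members, 6 were lower (75.0%, beside 35.9% of all tested genes). ETNK1 was higher (beside 30.5%) and LDHB was not called (group median -0.46). LDHB, the heart-type subunit of lactate dehydrogenase, was the most abundant member, with 412, 356 and 422 FPKM in shTDP-43, against 376, 379.8 and 366 FPKM in shNC. These groups overlap. BCAT1, the cytosolic aminotransferase that starts the breakdown of branched-chain amino acids, had 20.3, 16.7 and 20.7 FPKM in shTDP-43, against 52.1, 52.8 and 50.8 FPKM in shNC (-1.39). MGST1, a membrane-bound glutathione transferase, averaged 1.66 ± 0.140 FPKM in shTDP-43 and 7.53 ± 1.02 FPKM in shNC. DERA, the deoxyribose-phosphate aldolase, averaged 11.005 ± 1.91 and 18.015 ± 0.937 FPKM, and CMAS, which activates sialic acid for glycosylation, 13.05 ± 0.746 and 18.3 ± 0.772 FPKM in shTDP-43 and shNC libraries. The oxidoreductase gene PYROXD1 averaged 3.61 ± 0.268 and 5.27 ± 0.151 FPKM, and the heme-binding gene HEBP1 6.29 ± 0.591 and 9.08 ± 1.27 FPKM. ETNK1, which opens the synthesis of phosphatidylethanolamine, had 20.2, 19.5 and 19.7 FPKM in shTDP-43, against 17.6, 17.9 and 15.6 FPKM in shNC (0.21). That call was lost with no filter, and the direction turned under equal sums. ST8SIA1, the GD3 ganglioside synthase, was listed at 0 in 5 libraries and at 0.00632 FPKM in shNC library 1, and GYS2, the liver glycogen synthase, stood at 0.0491 FPKM or less throughout.

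Of the 9 tested members grouped under transcription, chromatin or RNA, 6 were lower (66.7%, beside 35.9% of all tested genes). LMO3 was higher (beside 30.5%), and SOX5 and KLHL42 were not called (group median -0.45). LMO3, a LIM-only transcriptional cofactor known as an oncogene in neuroblastoma, had 12.4, 10.3 and 13.6 FPKM in shTDP-43, against 2.38, 2.64 and 2.85 FPKM in shNC (1.85). It overlaps MGST1, which went the other way, on the opposite strand. ARNTL2, a clock transcription factor, averaged 1.13 ± 0.0572 FPKM in shTDP-43 and 11.8 ± 0.203 FPKM in shNC (-2.58). The clock repressor BHLHE41 missed the filter, with 0.315, 0.161 and 0.0357 FPKM in shTDP-43, against 1.68, 1.49 and 1.60 FPKM in shNC, and its groups did not overlap. RECQL, a DNA helicase, had 14.7, 12.2 and 15.5 FPKM in shTDP-43, against 29.3, 29.02 and 28.3 FPKM in shNC (-0.99). STRAP, which binds the SMN complex of spliceosome assembly, had 85.2, 75.7 and 83.8 FPKM in shTDP-43, against 112, 115 and 108 FPKM in shNC (-0.45). For WBP11, a splicing factor, the values were 38.3, 40.4 and 38.2 FPKM in shTDP-43, against 51.7, 49.3 and 50.5 FPKM in shNC (-0.37). MED21, a subunit of Mediator, averaged 10.02 ± 1.30 and 18.8 ± 0.628 FPKM, and AEBP2, a cofactor of Polycomb repressive complex, 8.44 ± 1.58 and 12.2 ± 0.0974 FPKM in shTDP-43 and shNC libraries. SOX5, a transcription factor of neural development, had 1.61, 1.44 and 1.74 FPKM in shTDP-43, against 1.04, 1.24 and 1.48 FPKM in shNC, with overlapping groups. KLHL42, placed in this group although it is a substrate adaptor of cullin ubiquitin ligases, averaged 14.9 ± 1.73 and 13.8 ± 0.825 FPKM.

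Read along the chromosome, the lower members came in runs, whose ends were set after the values were seen. The runs count members alone, which were chosen for their differences, and 35.9% of all tested genes were lower. Other tested genes lie within the runs, some of them lower. Of these others, KIAA1467 (0.50) and SLCO1A2 (1.01) were higher, and C12orf60 and RASSF8-AS1 were not called. All 4 tested members from APOLD1 to EMP1, all 9 from WBP11 to MGST1 and all 6 from PLEKHA5 to GOLT1B were lower, with medians of -0.43, -1.12 and -0.93, and LMO3 stood between the last 2 of these runs. In the next run of 6, from LDHB to SOX5, CMAS was lower, C2CD5 and ETNK1 were higher and 3 were not called (median 0.14). All 10 tested members from BCAT1 to PPFIBP1 were lower again (median -1.11). Of the last 3, PTHLH was lower and KLHL42 and CCDC91, on either side of it, were not called.

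**Figure D2:**
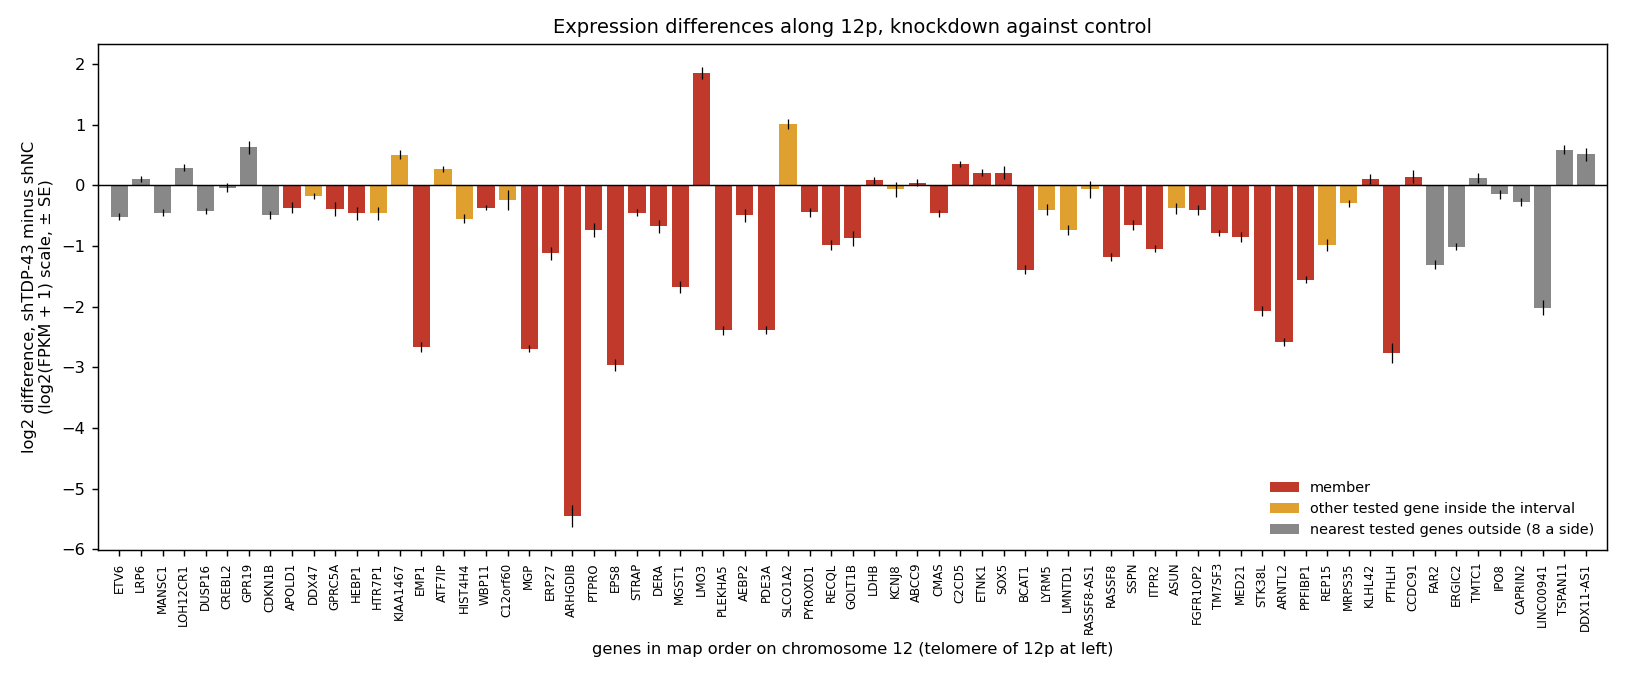
Log2 difference (shTDP-43 minus shNC, ± SE, log2(FPKM + 1) scale) for the tested members, other tested genes inside the interval (1 of the 15 is not drawn) and the 8 nearest tested genes on each side, in map order. Lower members fill most of the interval, broken by KIAA1467 (0.50), ATF7IP (0.28), LMO3 (1.85), SLCO1A2 (1.01) and the run from LDHB to SOX5. FAR2 and ERGIC2 beyond the last member are lower too.

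The list does not hold every gene of the interval. A further 50 genes of the table lie inside it, of which 15 were tested. Of these 15, 9 were lower (60.0%, beside 35.9% of all tested genes), 3 were higher (beside 30.5%) and 3 were not called (median -0.30). Lower by 2-fold or more were 0 of the 15, beside 7.95% of all tested genes. Members and other genes together gave 40 of 54 lower (74.1%), 6 higher and a median of -0.48. That share includes the members, which were chosen for their differences. Among the most abundant of the 15 were the histone gene HIST4H4, at 33.8 ± 2.72 FPKM in shTDP-43 and 49.99 ± 4.22 FPKM in shNC, the RNA helicase gene DDX47 at 33.6 ± 2.22 and 38.04 ± 1.43 FPKM, the mitochondrial ribosome gene MRPS35 at 19.3 ± 1.38 and 23.8 ± 0.392 FPKM, and ATF7IP, a cofactor of H3K9 methylation, at 20.4 ± 0.907 and 16.6 ± 0.320 FPKM. DDX47 turned slightly positive with quantile normalization (0.071). The 3 higher genes were ATF7IP (0.28), KIAA1467 (0.50) and the organic anion transporter SLCO1A2 (1.01), and under equal sums the first 2 were negative. The 3 not called were C12orf60, KCNJ8 and RASSF8-AS1.

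Genes beyond the ends of the interval differed as well. Just outside it on the telomere side, CDKN1B, the cyclin-dependent kinase inhibitor p27, had 24.4, 21.5 and 24.1 FPKM in shTDP-43, against 33.04, 35.2 and 30.9 FPKM in shNC (-0.49), close to APOLD1 just inside (-0.37). Next to it GPR19, an orphan receptor, was higher, with 3.04, 3.39 and 2.80 FPKM in shTDP-43, against 1.36, 1.97 and 1.62 FPKM in shNC (0.63), and CREBL2 had 11.3, 10.01 and 10.3 FPKM, against 11.2, 11.3 and 10.01 FPKM. On the centromere side CCDC91 just inside was not called (0.14), while FAR2, a fatty acyl-CoA reductase gene just outside, had 4.62, 4.05 and 4.80 FPKM in shTDP-43, against 12.2, 12.4 and 13.1 FPKM in shNC (-1.31). ERGIC2, a cargo receptor between endoplasmic reticulum and Golgi, had 16.3, 13.9 and 15.6 FPKM in shTDP-43, against 31.7, 31.9 and 31.6 FPKM in shNC (-1.01). TMTC1, which was not called, came next, with 2.33, 2.13 and 2.61 FPKM in shTDP-43, against 2.098, 2.05 and 2.099 FPKM in shNC (0.12).

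Over larger segments the medians were nearer to 0. The 101 tested genes of 12p on the telomere side had a median log2 difference of 0.01, with 31 lower (30.7%) and 31 higher. The 21 on the centromere side had a median of 0.12, with 6 lower (28.6%) and 9 higher, and the 501 on the long arm had a median of -0.09, with 209 lower (41.7%) and 141 higher. The members were chosen for their differences and the other segments were not, so no test was made between them.

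**Figure D3:**
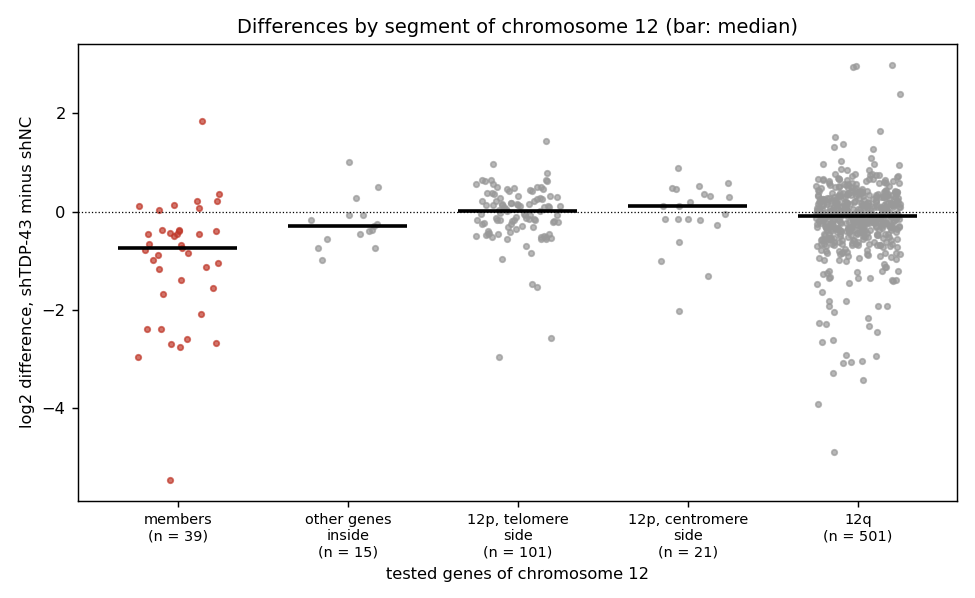
Log2 difference (shTDP-43 minus shNC) of each tested gene of chromosome 12 by segment; points are genes and bars are medians. The members' median is -0.74, that of the 15 other genes inside the interval -0.30, and those of the other segments lie between -0.09 and 0.12.

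The members were also set beside tested genes of similar level. The 9 tested members with a mean of 1 to 5 FPKM had a median of -0.65, against 0.11 for 3785 other genes of that level. The 20 members from 5 to 20 FPKM had a median of -0.59, against -0.03 for 6121 others. For the 9 members from 20 to 100 FPKM the median was -1.39 and all 9 were lower, against -0.14 and 49.3% lower for 2968 others. LDHB was the only member above 100 FPKM. Over the whole range of member levels, 13115 other genes had a median of -0.02.

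**Figure D4:**
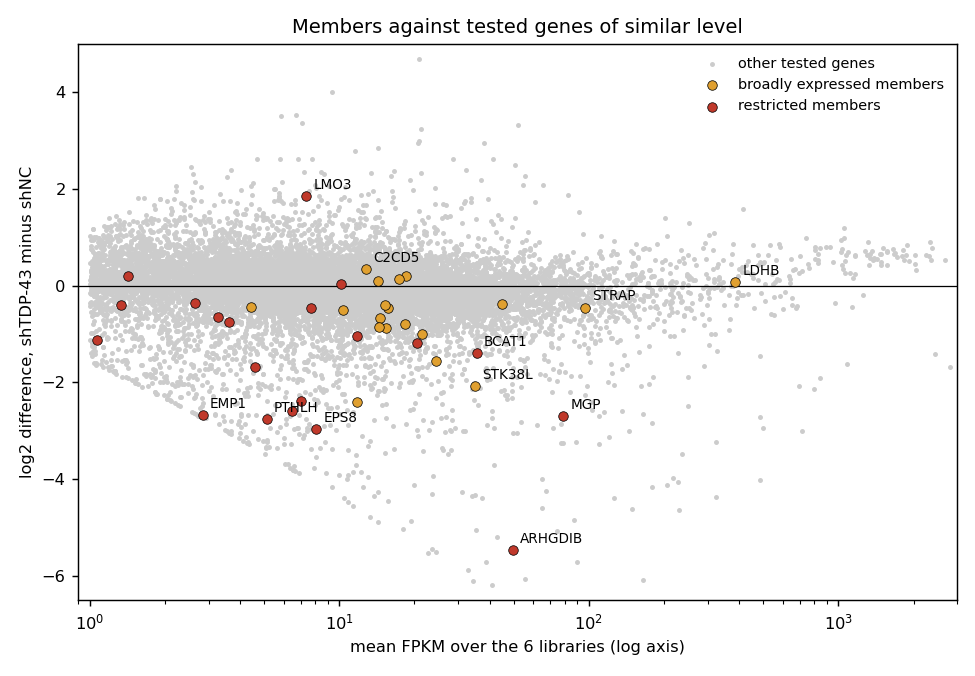
Log2 difference (shTDP-43 minus shNC) against mean FPKM over the 6 libraries on a log axis, with other tested genes in grey and members in colour by breadth of expression; a few genes beyond the axes are not shown. Members lie mostly below 0 at every level up to 100 FPKM, ARHGDIB at -5.46 is the lowest member, and LDHB sits at 0.08.

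Genes that start back to back gave a closer comparison of neighbours, looked at after their values were seen. The interval holds 6 such pairs of tested genes. RECQL and GOLT1B, whose annotated starts have 111 bases between them, stood at 0.490 and 0.530 of the shNC level. HEBP1 and the pseudogene HTR7P1 stood at 0.693 and 0.576, WBP11 and C12orf60 at 0.771 and 0.748, and ASUN and FGFR1OP2 at 0.754 and 0.742. EPS8 and STRAP have 61 bases between their annotated starts, and EPS8 stood at 0.0715 and STRAP at 0.730 of the shNC level. The EPS8 start used here is the outer end of its GENCODE span, and no RefSeq window was given for EPS8. Which start of EPS8 the cells used is not known from the FPKM table. RASSF8-AS1 and RASSF8, whose annotated spans overlap by 737 bases, stood at 0.935 and 0.424. C12orf60 and RASSF8-AS1 were not called, and the values of each overlapped between groups. Sequences between the starts follow for RECQL and GOLT1B, which differed alike, and for EPS8 and STRAP, which did not, as the plus strand of GRCh38.p14 from RefSeq, with CpG pairs in capitals. For EPS8 and STRAP the stretch ends before the RefSeq start of STRAP, which lies within the 61 bases, so 57 of them are printed.
RECQL-GOLT1B, chr12:21501670-21501780: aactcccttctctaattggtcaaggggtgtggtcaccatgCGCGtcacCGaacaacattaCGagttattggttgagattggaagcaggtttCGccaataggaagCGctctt
EPS8-STRAP, chr12:15882330-15882386: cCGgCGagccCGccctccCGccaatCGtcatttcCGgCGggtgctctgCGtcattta
The first holds 6 CpG pairs in 111 bases at 48.6% G+C, and the second 8 in 57 bases at 66.7% G+C. By annotated starts, the ratios were thus alike in the first pair and unlike in the second. Whether EPS8 and STRAP shared this spacer in these cells was not tested.

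Promoter windows from RefSeq, 250 bases before to 50 after a gene's start, were given for 32 of the 46 members, 28 of them tested. Where a gene has several starts in that table, the most upstream was used. A window with an observed-to-expected CpG ratio of 0.6 or more and at least 50% G+C was counted as CpG-rich. That held for 18 of the 28 tested members (64.3%), beside 80.2% of 9912 tested genes with a window. The CpG-rich members had a median log2 difference of -0.48, and the 10 others -1.47 (their difference was not tested), beside -0.05 and -0.01 for all tested genes of either class. The bases before the start are shown in transcript orientation for the member with the largest fall at 5 FPKM or more that has a window, ARHGDIB, and for the 2 largest rises, LMO3 and C2CD5, with CpG pairs in capitals. EPS8, the next largest fall, is named only. The table holds 3 starts for ARHGDIB, 5 for LMO3 and 2 for C2CD5. The starts shown for ARHGDIB and LMO3 lie inside the GENCODE spans of these genes (chr12:14942017-14961728 and chr12:16548373-16610594), so each is an alternative start, and which start the cells used is not known from the FPKM table.
ARHGDIB, chr12:14951152-14951401, minus strand: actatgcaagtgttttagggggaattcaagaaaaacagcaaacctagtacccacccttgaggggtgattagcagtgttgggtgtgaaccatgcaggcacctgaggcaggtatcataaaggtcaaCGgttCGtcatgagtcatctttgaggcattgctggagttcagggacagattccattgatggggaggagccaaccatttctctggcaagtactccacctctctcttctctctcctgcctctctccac
LMO3, chr12:16608215-16608464, minus strand: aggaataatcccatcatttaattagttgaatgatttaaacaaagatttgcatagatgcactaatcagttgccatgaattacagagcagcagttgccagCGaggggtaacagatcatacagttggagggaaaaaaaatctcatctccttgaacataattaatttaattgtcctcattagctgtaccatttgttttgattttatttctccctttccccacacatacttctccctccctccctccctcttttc
C2CD5, chr12:22544547-22544792, minus strand: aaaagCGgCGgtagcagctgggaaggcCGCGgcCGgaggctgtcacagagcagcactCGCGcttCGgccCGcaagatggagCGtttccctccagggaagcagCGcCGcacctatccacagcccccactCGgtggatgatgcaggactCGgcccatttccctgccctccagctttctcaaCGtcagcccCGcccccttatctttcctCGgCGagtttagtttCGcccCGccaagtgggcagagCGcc
ARHGDIB and LMO3, which moved furthest in opposite directions, had 2 and 1 CpG pairs in the 250 bases before these starts, while C2CD5 has 21 in 246. The letters TGTGTG, the DNA form of the UG repeats that TDP-43 binds in RNA, were searched on both strands of the windows, overlaps included. They were found in 7 of the 28 tested members (25.0%), beside 11.8% of tested genes and 16.9% of all 27305 windows. Of these members EMP1, PTPRO, PDE3A and PTHLH were lower, LMO3 and ETNK1 were higher, and SOX5 was not called. GGGCGG, the GC box, was found in 19 of the 28 (67.9%), beside 69.6% of tested genes and 44.5% of all windows. TATAAA was found in 4 of the 28, beside 545 of the 9912 tested genes and 3283 of the 27305 windows. These matches describe letters in a window and do not show binding.

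Paralogues outside the interval had levels of their own. Of 36 listed, 30 were tested. Of these 18 fell (beside 35.9% of all tested genes), 7 rose (beside 30.5%) and 5 were not called. Their median was -0.27, beside -0.02 over all tested genes. They were listed by gene family, and the list is not complete. ARHGDIG, of the family of ARHGDIB, was tested (-0.00105, not called) but not listed. ARHGDIA, the broadly expressed paralogue of ARHGDIB, had 181, 203 and 169 FPKM in shTDP-43, against 235, 233 and 243 FPKM in shNC, and fell by 0.37 (limma adjusted p = 0.000883), while ARHGDIB stood 5.46 lower. LDHA, the muscle-type subunit of lactate dehydrogenase, had 147, 140.3 and 146 FPKM in shTDP-43, against 298, 298 and 289.9 FPKM in shNC, and fell by 1.03 (limma adjusted p = 3.44e-08), whereas its 12p partner LDHB overlapped between groups. Of the cofactor family of LMO3, LMO1 rose by 1.83 (limma adjusted p = 2.89e-06), with 26.4, 28.5 and 23.3 FPKM in shTDP-43, against 5.22, 7.03 and 7.80 FPKM in shNC. LMO4 fell by 2.397 (limma adjusted p = 5.63e-08), with 3.13, 2.62 and 3.60 FPKM in shTDP-43, against 21.3, 20.3 and 20.1 FPKM in shNC. EMP3 fell by 2.57 (limma adjusted p = 5.56e-06), nearly as much as EMP1, with 2.69, 3.37 and 1.34 FPKM in shTDP-43, against 17.8, 18.7 and 20.4 FPKM in shNC, and EMP2 fell by 0.51, at 7.65, 6.95 and 7.37 against 10.5, 11.1 and 10.8 FPKM.

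Among paralogues of the less abundant members, the largest change was that of BHLHE40, named after its values were seen. This clock repressor had 0.246, 0.286 and 0.136 FPKM in shTDP-43, against 15.05, 16.4 and 15.2 FPKM in shNC, and fell by 3.76 (limma adjusted p = 1.85e-09). Its 12p paralogue BHLHE41 was low in the same libraries. HEBP2 and ARNTL were likewise named after their values were seen. HEBP2 fell by 1.56, at 0.628 ± 0.0778 FPKM in shTDP-43 and 3.79 ± 0.257 FPKM in shNC. ARNTL, the core clock factor related to ARNTL2, rose by 0.67, at 10.7 ± 0.920 FPKM in shTDP-43 and 6.33 ± 0.127 FPKM in shNC, and its difference was negative under equal sums.

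The other paralogues of the abundant or most changed members had smaller differences. STK38 fell by 0.17, with 13.2, 12.47 and 14.04 FPKM in shTDP-43, against 15.3, 15.0 and 14.8 FPKM in shNC, and PPFIBP2 fell by 0.32, with 5.50, 5.52 and 5.65 against 7.09, 6.94 and 7.46 FPKM. EPS8L1 fell by 0.33, with 0.965, 0.752 and 0.875 FPKM in shTDP-43, against 1.499, 1.02 and 1.53 FPKM in shNC. ETNK2 rose by 0.46, with 6.93, 7.98 and 6.87 FPKM in shTDP-43, against 5.21, 4.85 and 4.99 FPKM in shNC. SOX13 rose by 0.32, with 2.48, 1.73 and 2.03 FPKM in shTDP-43, against 1.62, 1.41 and 1.37 FPKM in shNC, and under equal sums both differences were negative. BCAT2, at 11.5, 12.2 and 9.89 FPKM in shTDP-43 against 10.98, 9.76 and 10.6 FPKM in shNC, and RASSF7, at 1.51, 1.75 and 1.501 against 1.92, 1.27 and 1.18 FPKM, were not called. The call of STK38 was lost without shTDP-43 library 1 or any single shNC library (-0.18 to -0.16), and with the replicate block. SOX13 was not called without shTDP-43 library 1 or 3 or shNC library 2 or 3 (0.22 to 0.32), nor EPS8L1 without shTDP-43 library 2 or 3 or shNC library 1 or 3 (-0.33 to -0.27). Differences between a member and its paralogue were not tested.

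**Figure D5:**
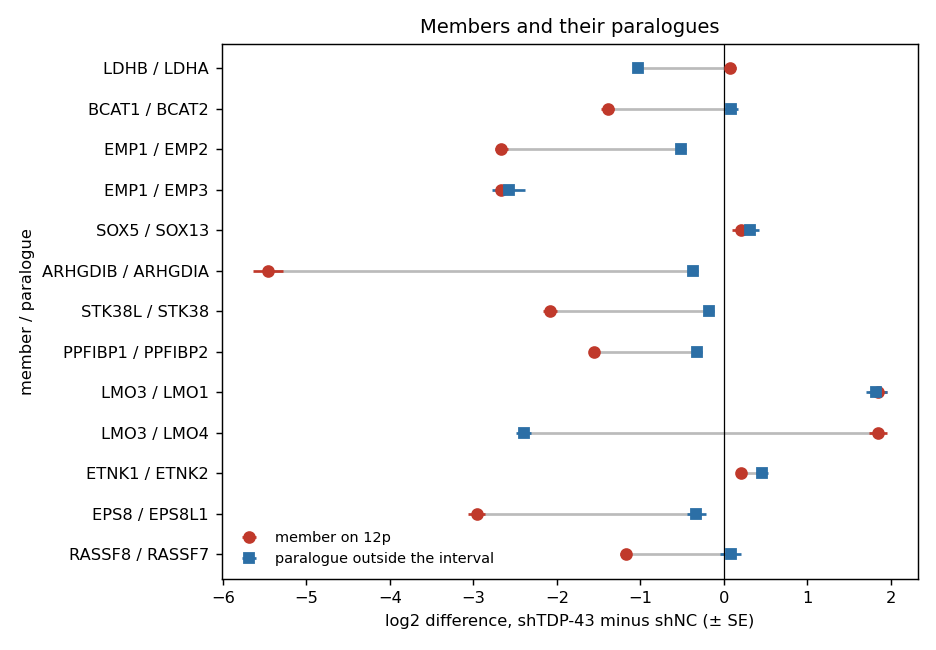
Log2 difference (shTDP-43 minus shNC, ± SE) of members (circles) and their listed, tested paralogues outside the interval (squares), 1 pair per line. LMO3 with LMO1 and EMP1 with EMP3 lie close together, while ARHGDIB (-5.46) and ARHGDIA (-0.37) lie furthest apart.

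Some members share sequence with neighbours. The annotated spans of 7 tested members overlap another tested gene, such as MGST1 with LMO3, PYROXD1 with RECQL and RASSF8 with RASSF8-AS1 on opposite strands, and APOLD1 with DDX47 on the same strand. The sources used here do not say whether counting used strand, and reads within such overlaps cannot be told apart.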

How the data were processed

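The 6 libraries were made from poly(A) RNA with a kit that keeps strand, per the labels' protocols. The authors deposited FPKM values in a single table, used here on its own scale. TopHat2 2.1.0, SAMtools, Cuffdiff 2.2.1 and the build hg38 are named in the submitters' processing notes. How strand, annotation and library scaling were set is not given in the sources used here. Column sums were 2123050 to 2449948 FPKM in shTDP-43 and 1182985 to 1226728 FPKM in shNC libraries.

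The fit took 13434 of 26372 genes, those averaging at least 1 FPKM, as log2(FPKM + 1). It used limma 3.58.1 (R 4.3.3) with a trend on intensity and no covariate, and genes were called at a Benjamini-Hochberg adjusted p under 0.05 over all tested genes. The pseudocount understates the change of low genes. Gene positions came from GENCODE v29 (GRCh38) for 96.93% of tested genes. They were matched by symbol, for 396 tested genes through an older symbol listed by RefSeq. The arms of chromosome 12 were divided at 36 Mb. Promoter windows are from RefSeq, GRCh38.p14. Python 3.11.15 with pandas 2.3.3 made the summaries, and matplotlib 3.10.9 the plots.

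The members, role groups, paralogues and marker lists were chosen with earlier results of these data known. Every member is named. A single other gene of the interval is counted with its neighbours but not reported here. Values in every library are given for the 10 most abundant tested members, the 5 largest falls and the 5 smallest falls or rises. They are also given for the 3 nearest tested genes on each side and the listed, tested paralogues of those members. A few others were added after their values were seen. No 2 libraries shared more than 1 identical non-zero value.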

Additional observations from a re-analysis of the deposited data

How the results depend on the processing

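The fit was repeated with smaller pseudocounts (0.1 and 0.5), other filters (0.1 FPKM, 5 FPKM, none), 4 rescalings, a replicate block, 2 other variance settings of limma and each library left out. The count of members called lower was 31 with every library, beside 35.9% of all tested genes. Without any 1 library it was 30 to 31, beside 32.7% to 36.3%. It was 32 of 42 tested at a minimum of 0.1 FPKM (beside 31.5%) and 23 of 30 tested at a minimum of 5 FPKM (beside 40.4%). After quantile normalization it was 30 (beside 28.1%). It was 38 when columns were set to equal sums, where 87.0% of all genes were lower. The count called higher was 6 with quantile normalization (beside 5390 of 13434 tested genes) and 1 with equal sums (beside 522). It was 2 with no filter (beside 4064 of 26372 genes), where the call of ETNK1 was lost. Without any 1 library it was 3 to 6 (beside 3598 to 4257 of 13434). The members' median was -0.57 with no filter, where 46 members entered, and -1.52 with equal sums, where the median of all genes moved to -0.82, and -0.80 to -0.67 with each library left out in turn. Equal sums computed without 6 small RNAs gave 31 lower and 3 higher members and a median of all genes of -0.05. Relative to the median of all genes, that of the members was -0.72 as reported, -0.82 at a pseudocount of 0.1 and -0.57 with no filter. Higher calls were 45.9% of all calls as reported, 58.8% with quantile normalization and 4.27% with equal sums. Of 39 members, 30 kept their direction and call under all alternatives in which they were tested. With equal sums LDHB (-0.82), ABCC9 (-0.78), C2CD5 (-0.49), ETNK1 (-0.65), SOX5 (-0.33), KLHL42 (-0.74), CCDC91 (-0.71), TMTC1 (-0.51), KIAA1467 (-0.24), ATF7IP (-0.58), BCAT2 (-0.74), SOX13 (-0.26), ETNK2 (-0.32), ARNTL (-0.13) and RASSF7 (-0.46) turned negative, and DDX47 turned positive with quantile normalization (0.071). With the replicate block the members gave 31 lower and 3 higher (median -0.74), and 4667 genes were lower and 3894 higher in all. The shared replicate numbers were not used as pairs in the main fit. For libraries of the same number, the correlations of deviations from the group means were -0.0185, -0.185 and -0.0911. No library correlated best with its own number. Deviations within a group of 3 are tied to each other, so these values cannot show whether libraries were prepared in pairs. FPKM without read totals limits what can be said of members under 1 FPKM.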
